A study of Homo sapiens with 6 samples.

Results

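The genes described here are 8 structural genes of epithelium and hair, namely the keratin-associated protein genes KRTAP2-3, KRTAP1-5 and KRTAP1-1, the hair keratin gene KRT34 and the epithelial keratin genes KRT8, KRT18, KRT7 and KRT80. They were picked by name from 21447 genes to which transcripts of the 6 libraries could be assigned, and 6 of the 8 were detected, with at least 1 estimated count in a library. The list was drawn up with the large difference of KRTAP2-3 between the groups already known, so the difference between irradiated and untreated cells is given for all 8 genes as a description, without P values, and where the fit over all genes called a member that call is only counted and not read as evidence.

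Bulk RNA-seq had been done on U-2 OS cells, an osteosarcoma line that carries wild-type p53, growing without synchronization. The 3 untreated libraries came from cells that received no radiation, and the 3 IR libraries from cells collected 24 h after a dose of 4 Gy of ionizing radiation. No other agent or genetic change separated the groups in the labels, and every library was from the same cell line. The labels do not say whether replicates were separate cultures, while the paper describes triplicate samples that it calls independent. P values below measure only the spread between these libraries. Between 18573309 and 45308792 estimated counts were assigned per library, the most in IR replicate 3. CDKN1A encodes the p21 inhibitor that p53 switches on after DNA damage. Its normalized count (CPM, counts scaled to the library size as adjusted by the TMM method) was 122 ± 1.70 (mean ± SD, n = 3) in untreated cells. In IR cells it was 351 ± 34.9 (n = 3), in the direction of the labels. As to the cell type, the bone matrix genes COL1A1 (2683 to 3509 CPM) and SPARC (1609 to 1694 CPM) were abundant in every library, whereas SP7, a defining transcription factor of osteoblasts, was at 0 in all 6.

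Keratins are intermediate filament proteins that assemble as obligate pairs of a type I and a type II chain. KRT8 and KRT18 are the usual pair of simple epithelia, KRT7 and KRT80 are further type II chains, and KRT34 is a type I chain of the hair shaft. Keratin-associated proteins such as KRTAP2-3 are small cysteine-rich proteins that crosslink hair keratins, and their genes lie in dense clusters, of which the cluster on chromosome 17 sits within the type I keratin genes. Bone cells are not known for any of these proteins, although cultured mesenchymal tumour lines often contain some KRT8 and KRT18.

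In GRCh38, KRTAP2-3 occupies chr17:41059240-41060114 on the minus strand as a single exon. KRTAP1-1 (chr17:41040541-41041450) and KRTAP1-5 (chr17:41026026-41027208), also of 1 exon each, follow on the same strand, and KRT34 (chr17:41377669-41382306, minus strand, 7 exons) starts 322 kb from KRTAP2-3. The other 4 genes lie in the type II cluster on chromosome 12, where KRT80 spans chr12:52168996-52192014 (minus strand), KRT7 chr12:52232520-52252186 (plus strand), KRT8 chr12:52897187-52949954 (minus strand) and KRT18, the only type I gene there, chr12:52948871-52952906 (plus strand). The 250 bases before the start of the 4 genes of chromosome 17 are printed because KRTAP2-3 and KRT34 were the members with the widest separation between the groups while KRTAP1-5 and KRTAP1-1, their neighbours, were never counted. These windows are chr17:41060115-41060364 for KRTAP2-3, chr17:41382307-41382556 for KRT34, chr17:41027209-41027458 for KRTAP1-5 and chr17:41041451-41041700 for KRTAP1-1, from RefSeq (GRCh38.p14), written 5′ to 3′ on the minus strand with the TATA box letters TATAAA in capitals.
KRTAP2-3: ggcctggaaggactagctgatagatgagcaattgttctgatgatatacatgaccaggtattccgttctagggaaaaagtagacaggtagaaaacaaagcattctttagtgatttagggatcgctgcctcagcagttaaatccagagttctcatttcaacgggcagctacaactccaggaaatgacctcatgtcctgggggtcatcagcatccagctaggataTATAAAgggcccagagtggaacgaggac
KRT34: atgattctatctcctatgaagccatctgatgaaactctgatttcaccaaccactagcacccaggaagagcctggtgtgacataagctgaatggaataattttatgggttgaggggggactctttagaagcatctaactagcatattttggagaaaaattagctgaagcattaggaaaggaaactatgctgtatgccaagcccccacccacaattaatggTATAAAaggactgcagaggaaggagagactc
KRTAP1-5: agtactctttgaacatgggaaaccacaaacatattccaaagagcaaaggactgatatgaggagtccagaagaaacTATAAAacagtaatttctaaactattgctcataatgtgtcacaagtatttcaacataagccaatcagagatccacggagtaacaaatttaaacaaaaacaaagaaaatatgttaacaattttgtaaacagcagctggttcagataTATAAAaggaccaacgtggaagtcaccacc
KRTAP1-1: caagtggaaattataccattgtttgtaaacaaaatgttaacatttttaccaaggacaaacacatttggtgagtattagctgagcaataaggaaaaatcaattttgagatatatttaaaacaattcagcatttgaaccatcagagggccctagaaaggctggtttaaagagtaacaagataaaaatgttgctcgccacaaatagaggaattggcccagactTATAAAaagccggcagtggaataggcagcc

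Each of the 4 windows held TATAAA close to the start, at 28 bases before it in KRTAP2-3, at 30 in KRTAP1-5 and KRTAP1-1 and at 31 in KRT34, and KRTAP1-5 had another copy at 175 bases. The letters TATAAA on either strand were present in 10.7% of 35116 RefSeq windows of the same length, and they were missing from that of KRT8 (chr12:52926470-52926719). Thus the promoter windows of the 2 counted and the 2 uncounted genes of chromosome 17 shared TATAAA close to the start. The KRT8 window precedes a RefSeq start that lies inside the KRT8 gene as annotated above. KRT8 has 17 transcripts in the data, and this need not be the start of those that were counted. The CCAAT box, found in 32.0% of all windows, occurred in KRTAP1-5 at 116 bases and in KRTAP1-1 on the opposite strand, and not in KRTAP2-3, KRT34 or KRT8. The AP-1 motif TGANTCA, in 6.57% of all windows, was in none of these 5, and the p53 decamer, in 5.57% of all windows, was found only in KRT8, at 136 bases. A match of letters in so short a window describes the sequence and says nothing about binding.

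KRTAP2-3 was a low-count gene in untreated cells and a clearly counted gene after IR. It received estimated counts of 35, 46 and 41 in the untreated libraries, against 178, 159 and 372 in those of IR cells. Scaled for library size, these were 1.92, 2.05 and 2.004 CPM in untreated cells against 8.62, 8.66 and 8.24 CPM in IR cells. Every IR library was above every untreated library, and the libraries of each group lay close together, including IR replicate 3 with its larger depth. The mean went from 1.99 ± 0.0655 CPM (SD, n = 3) to 8.50 ± 0.232 CPM (n = 3), a log2 fold change of 2.09 (SE 0.15, 95% confidence interval 1.76 to 2.42), or 4.25-fold. By log2 fold change KRTAP2-3 stood at position 10 of the 14323 genes tested. In RNA from whole cultures, a higher level in all cells cannot be told apart from a larger share of cells that contain the transcript.

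KRTAP1-5 and KRTAP1-1, whose proteins belong to another high-sulfur family of the hair shaft, had 0 estimated counts in all 6 libraries. A count of 0 allows up to 3 counts, which corresponds to between 0.0672 CPM in the deepest library and 0.164 CPM in the shallowest (counting error only), so a level below these limits was not detectable. All 4 genes of the KRTAP1 family were at 0, and so were KRTAP2-1, KRTAP2-2 and KRTAP2-4, the remaining members of the KRTAP2 family. KRTAP2-3 was thus the only counted gene of its family. This rests on how kallisto divided reads between near-identical genes, since 366 of the 845 stretches of 31 bases in the KRTAP2-3 transcript (43.3%) also occurred in another gene, 364 of them in KRTAP2-4. The other stretches are unique to KRTAP2-3 among the genes compared.

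KRT34, a hair keratin that occurs in the shaft cortex, was the member most like KRTAP2-3. Its values were 7.03, 6.51 and 6.55 CPM in untreated cells and 16.3, 17.8 and 18.3 CPM in IR cells, with no overlap. The mean moved from 6.70 ± 0.289 CPM (n = 3) to 17.5 ± 1.02 CPM (n = 3), which is 2.61-fold (log2 fold change 1.39, SE 0.10, 95% confidence interval 1.15 to 1.62). KRT34 shared 23.4% of its 31-base stretches with other genes, most of them with KRT33B, KRT31 and KRT33A. Of these, KRT33B was near its detection limit, with 0.650 ± 0.272 CPM in untreated and 1.09 ± 0.379 CPM in IR cells (n = 3 each). TPM is the deposited level per length, by which genes can be compared, although the effective lengths behind it differ between libraries. In TPM, KRTAP2-3 reached 0.523, 0.592 and 0.532 of the KRT34 level in the untreated replicates. In the IR replicates it reached 0.982, 0.900 and 0.886 of that level. The ranges of the ratio did not overlap, and after IR the level per length of KRTAP2-3 was close to that of the keratin gene.

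**Figure D1:**
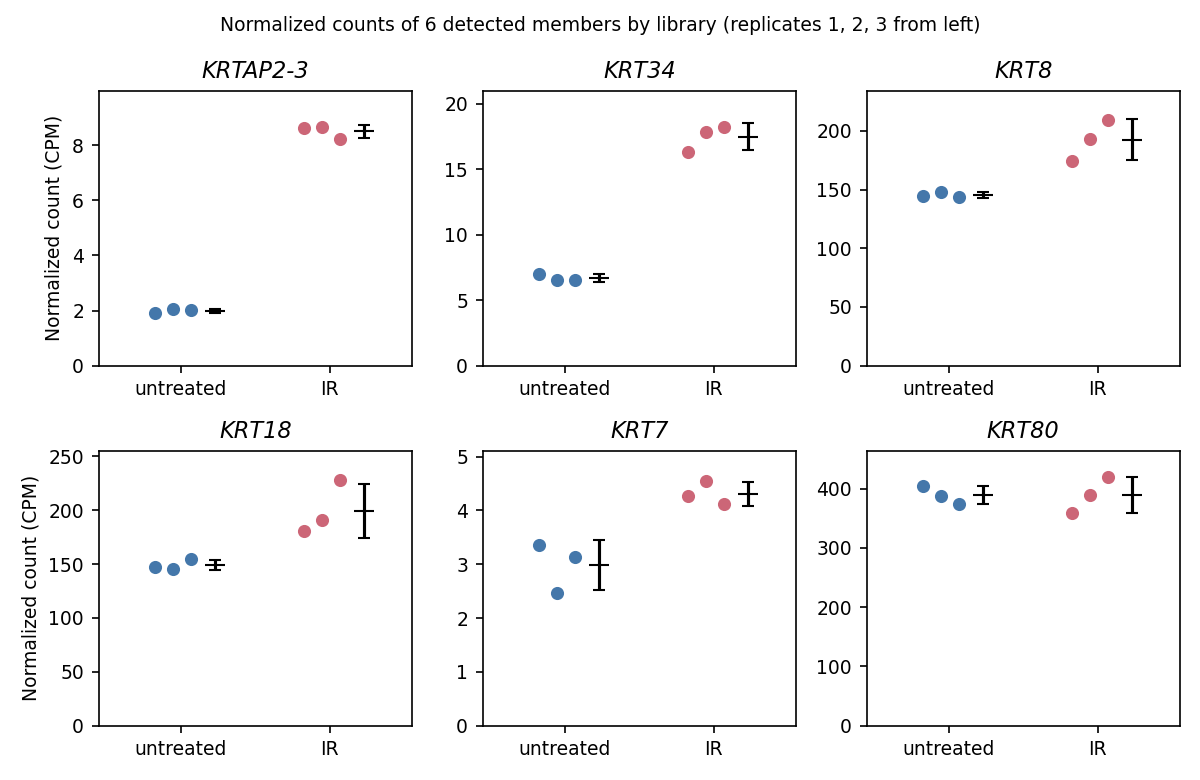
Normalized counts (CPM, linear axes from 0) of the 6 detected genes in each untreated (blue) and IR (red) library, with black bars for the mean ± SD of 3 libraries. The IR libraries of KRTAP2-3 (8.24 to 8.66 CPM) and KRT34 (16.3 to 18.3 CPM) sit far above the untreated ones, those of KRT8, KRT18 and KRT7 just above, and those of KRT80 overlap them.

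KRT8 and KRT18, the simple-epithelial pair, were abundant already in untreated U-2 OS cells and differed between the groups by much less than KRT34. KRT8 lay at 144.5, 148 and 144 CPM in untreated cells and at 175, 193 and 209 CPM in IR cells, a log2 fold change of 0.40 (SE 0.07, 95% confidence interval 0.24 to 0.57). KRT18 lay at 147, 146 and 155 CPM in untreated cells and at 180.35, 190.4 and 228 CPM in IR cells, a log2 fold change of 0.42 (SE 0.09, 95% confidence interval 0.23 to 0.62). For both genes all IR libraries were above all untreated ones, and IR replicate 3 was the highest, at 1.14 times the mean of the other IR replicates for KRT8 and 1.23 times for KRT18. Without IR replicate 3, the log2 fold changes were 0.33 for KRT8 and 0.30 for KRT18. Both genes are rich in G and C (56.7% and 58.2%), and when each library's trend with GC content was removed the log2 fold changes became 0.26 and 0.23.

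The ratio of the pair was nearly constant. KRT8 CPM over KRT18 CPM was 0.982, 1.02 and 0.929 in the untreated replicates and 0.969, 1.01 and 0.919 in the IR replicates, so both groups covered the same range. Per length, the ratio was 1.12, 1.14 and 1.12 in untreated cells and 1.04, 1.12 and 0.843 in IR cells, where replicate 3 stood below the rest. Counting of this pair is not fully independent, as KRT8 and KRT18 overlap on opposite strands by 375 exonic bases and the sources used here do not say whether strand was used. The 7 KRT8 transcripts that reach into KRT18 exons held between 9.54% and 14.5% of KRT8 counts in the 6 libraries.

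KRT8 counts were also spread over several transcripts, and not in the same way in each library. ENST00000293308, a coding transcript, held 54.2%, 49.6% and 36.5% of the counts in untreated cells and 44.1%, 55.8% and 46.4% in IR cells. ENST00000552150, another coding transcript, ranged from 2.24% to 24.3% within the untreated group alone and from 6.57% to 31.7% within the IR group. The retained-intron transcript ENST00000549176 held 11.1% in IR replicate 3 and between 21.9% and 26.9% in the other libraries. These shares overlapped between the groups, in contrast to the gene totals. KRT18 counts came almost wholly from ENST00000388835, with 95.4% to 99.6% in each library.

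KRT7, a type II keratin of glandular and ductal epithelia, was low in U-2 OS cells. Its values were 3.35, 2.46 and 3.13 CPM in untreated and 4.26, 4.54 and 4.11 CPM in IR cells, and the groups did not overlap. The log2 fold change was 0.53 (SE 0.18, 95% confidence interval 0.13 to 0.94), and it dropped to 0.28 with the GC trend removed. Its counts went mainly to ENST00000552322, a transcript with no defined coding sequence, which held 40.1% to 66.3% of them by library, while 12.2% to 31.9% were assigned to the coding transcript ENST00000331817. KRT7 therefore provided few counts from its coding transcript in any library.

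KRT80, a type II keratin without a fixed partner in the textbooks, was the most counted member and did not separate the groups. Its values were 404, 387 and 374 CPM in untreated and 358, 388 and 419 CPM in IR cells. The means were 388.6 ± 15.1 CPM and 388.5 ± 30.5 CPM (n = 3 each), with a log2 fold change of 0.00 and a 95% confidence interval of -0.16 to 0.16. The interval leaves room for a difference of up to 0.16 in either direction, and with the GC trend removed the estimate was -0.15. The coding transcripts ENST00000394815 and ENST00000313234 held 51.1% to 67.0% and 31.3% to 43.5% of its counts.

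Per length, the members fell into an abundant and a scarce class. In untreated cells KRT8 was highest at 168 ± 9.92 TPM (n = 3), followed by KRT18 at 148 ± 9.52 TPM and KRT80 at 92.2 ± 8.17 TPM, with no overlap between neighbours in this order. A gap of 17.8-fold separated KRT80 from KRT7 at 5.19 ± 1.15 TPM, whose range overlapped that of KRT34 at 4.93 ± 0.281 TPM, and KRTAP2-3 was lowest at 2.70 ± 0.191 TPM. After IR, KRT18 (199 ± 40.1 TPM) and KRT8 (195 ± 11.3 TPM) overlapped, and KRT80 was at 94.1 ± 16.4 TPM. KRT34 (12.7 ± 1.27 TPM) and KRTAP2-3 (11.7 ± 0.828 TPM) overlapped each other and both lay above KRT7 (6.98 ± 0.720 TPM). The order within the scarce class was therefore different in the IR group, and that of the abundant class was not resolved beyond KRT80 being below the pair.

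**Figure D2:**
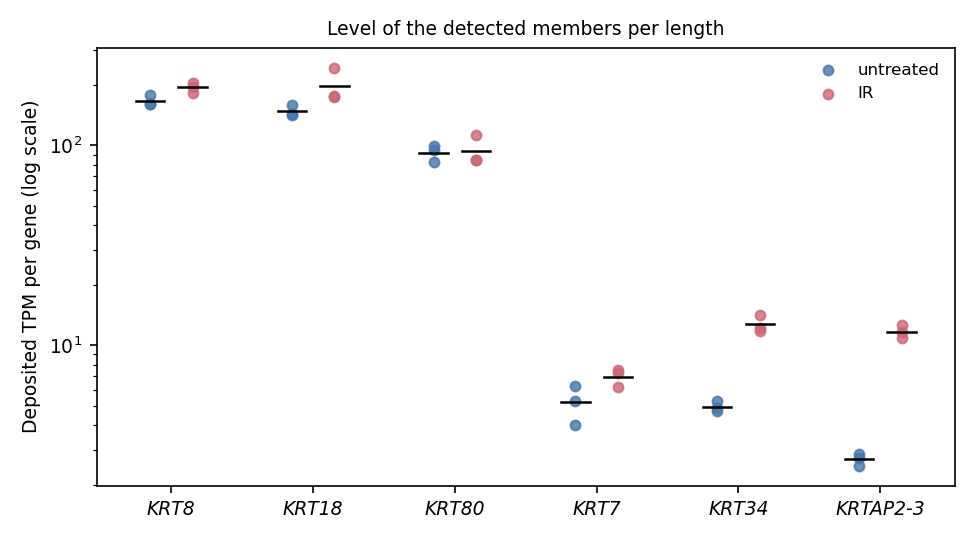
Deposited TPM summed per gene on a log scale, with a point for each untreated (blue) and IR (red) library and a line at the mean of 3. KRT8, KRT18 and KRT80 lie near 100 TPM or above, and KRTAP2-3 moves from the lowest place (2.70 TPM) to the level of KRT34 (11.7 and 12.7 TPM) after IR.

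Across the members, 6 of 8 had enough counts to be tested, 4 of the 6 (KRTAP2-3, KRT34, KRT8 and KRT18) were called higher after IR by the quasi-likelihood test of edgeR at an adjusted P under 0.05, and none was called lower. Over all 14323 genes tested, 30.1% were called, 15.5% higher and 14.5% lower. The groups did not overlap for 5 members, with IR above untreated in each, against 47.0% of all tested genes without overlap and 23.8% with IR above (23.3% with IR below). The median log2 fold change was 0.48 for the 6 tested members and 0.01 for all tested genes. As the members had been picked with these differences in view, nothing is read from these counts.

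The keratin and KRTAP genes left after the members were taken out were called in both directions. The libraries contained 149 genes of both families, of which 85 were at 0 in all libraries and 16 were tested. KRTAP2-3 was the only one of 94 KRTAP genes with enough counts to be tested, and on chromosome 17 it was 1 of 3 among 34 with any count. Of the 10 tested genes outside the member list, 1 rose, 3 fell and 6 were not called, beside 15.5% higher and 14.5% lower among all tested genes, and their median log2 fold change was 0.06. As the members were picked with the differences in view, leaving them out shapes these counts. With the members included, 5 of the 16 tested genes were called higher and 3 lower, and the median was 0.41. KRT81, a type II hair keratin, rose from 224, 246 and 262 CPM to 375, 406 and 466 CPM (log2 fold change 0.77, SE 0.09, edgeR adjusted P = 6.09e-04). KRT81 shares 49.9% of its 31-base stretches with other genes, 820 of 1899 stretches with the hair keratin gene KRT86, which itself had 0.398 CPM in untreated and 0.541 CPM in IR cells on average.

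KRT75, a type II keratin of the hair follicle companion layer, fell from 67.0, 60.2 and 64.5 CPM to 45.2, 43.99 and 46.3 CPM (log2 fold change -0.50, SE 0.07, edgeR adjusted P = 0.00115). The calls for KRT81 and KRT75 were made in all 16 alternative fits, although the log2 fold change of KRT81 was 0.45 with the GC trend removed. KRT16 and KRT17, type I keratins induced in stressed or wounded epidermis, were also lower after IR. KRT17 had 126 ± 8.71 CPM in untreated and 106 ± 7.20 CPM in IR cells (log2 fold change -0.25, edgeR adjusted P = 0.0338), and KRT16 had 2.34 ± 0.301 and 1.07 ± 0.337 CPM (log2 fold change -1.08, edgeR adjusted P = 0.0161; n = 3 each). These were less firm, since the call was made in 11 of 16 alternative fits for KRT17 and in 13 of 16 for KRT16, and leaving out IR replicate 1, untreated replicate 1 or untreated replicate 3 ended that for KRT17 and leaving out IR replicate 2 or untreated replicate 3 that for KRT16. KRT10, KRT14, KRT15, KRT33B, KRT86 and KRT222 were not called, with log2 fold changes from -0.18 to 1.15. For KRT15 the wide interval of -0.07 to 2.37 reflected untreated values of 1.32, 0.816 and 0.0979 CPM.

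**Figure D3:**
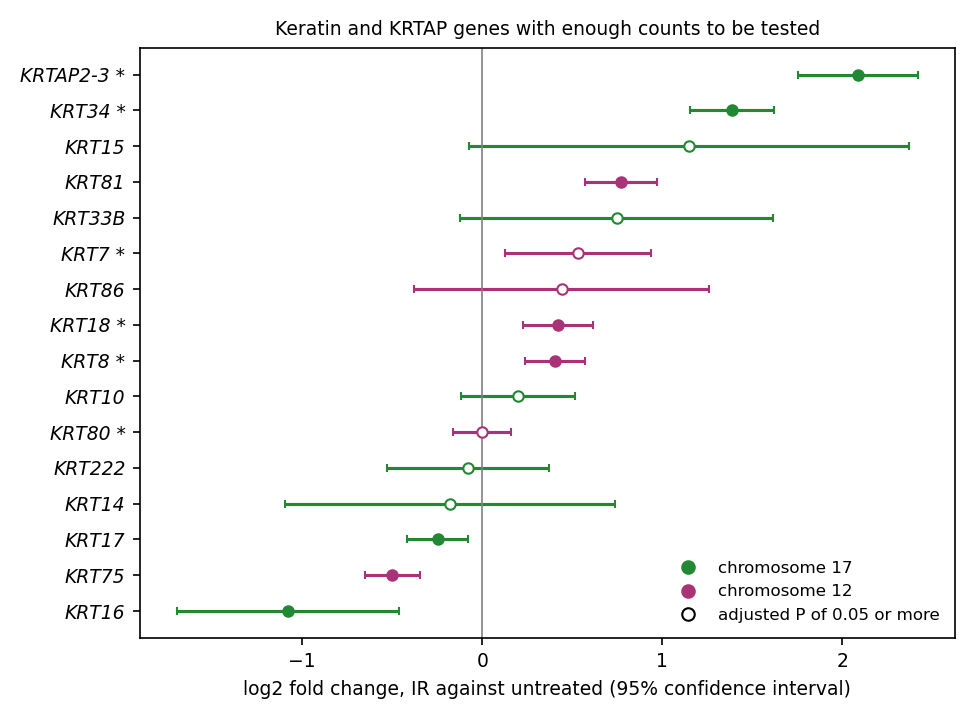
Log2 fold change (IR against untreated) with its 95% confidence interval for the 16 keratin and KRTAP genes that could be tested, coloured by chromosome, with filled points for an edgeR adjusted P under 0.05 and asterisks for the genes of the member list, for which the filling is a description only. KRTAP2-3 (2.09) and KRT34 (1.39) lie at the top, KRT75 (-0.50) and KRT16 (-1.08) at the bottom.

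Position was considered next, since KRTAP2-3 and KRT34 lie in the same stretch of chromosome 17. Within 500 kb of the start of KRTAP2-3 there were 62 genes, 58 of them keratin or KRTAP genes, and 41 of the 62 had no count in any library. Of the 8 tested, the members KRTAP2-3 and KRT34 were called, and both had been picked beforehand. None of the other 6 was called, where 30.1% of all tested genes were. The 2 tested genes without a keratin or KRTAP symbol were SMARCE1 and ENSG00000264058. SMARCE1 encodes a chromatin remodelling subunit (log2 fold change -0.14, edgeR adjusted P = 0.248). ENSG00000264058 (0.79, edgeR adjusted P = 0.117) was called when IR replicate 3 or untreated replicate 3 was left out. Its span overlaps those of SMARCE1 and the keratin gene KRT222 on the same strand. How far kallisto divided reads between the 3 genes was not tested. KRT10 and KRT33B, the tested keratin genes closest to KRTAP2-3 on each side, had log2 fold changes of 0.20 and 0.75 without a call. Most genes between KRTAP2-3 and KRT34 were at 0 in both groups, so the data do not say whether the whole interval or only these genes differed.

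The genes whose profile over the 6 libraries was nearest to that of KRTAP2-3, by the root mean square difference of centred log2 CPM, were KANK3 (0.15), TFEC (0.17), TNFRSF14 (0.21), EBI3 (0.25) and DNAI3 (0.27). None of these is a keratin or lies on chromosome 17. KANK3, the closest, had 0.879, 1.18 and 0.880 CPM in untreated and 4.18, 3.98 and 4.85 CPM in IR cells, and TNFRSF14, a receptor of the tumour necrosis factor family, had 3.29, 2.94 and 3.66 CPM against 11.2, 11.3 and 15.1 CPM. KRT34 came at position 15 in this order (0.35). With 6 libraries in 2 groups, likeness of profiles is mostly likeness of the group difference.

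Genes listed as partners or regulators of keratin filaments moved in both directions. The list of 21 was broader than this name, as it held, among others, KRTCAP2, KRTCAP3 and AHNAK, which are not established as such. All 21 were tested, 7 rose and 3 fell, beside 15.5% higher and 14.5% lower among all tested genes. Their median log2 fold change was 0.14 against 0.01 for all genes. EPPK1, among the 7, had 0.549, 0.401 and 0.0977 CPM in untreated cells and failed the stricter filter of 10 counts in every library. FAM83H, which recruits casein kinase 1 to keratin filaments, rose from 73.5 ± 1.71 to 120.4 ± 8.28 CPM (n = 3 each; log2 fold change 0.71, edgeR adjusted P = 2.63e-04), and AHNAK, a giant scaffold protein, fell from 2263 ± 198 to 1604 ± 92.6 CPM (-0.50, edgeR adjusted P = 0.00187), both in all 16 alternative fits, although the log2 fold change of FAM83H was 0.27 with the GC trend removed. FBF1 (0.45) and CAPN1 (0.44) rose too, and CSNK1A1 (-0.19) and YWHAZ (-0.19) fell, but these 4 lost their calls with the GC trend removed, and CSNK1A1 and YWHAZ also when IR replicate 2 or any single untreated library was left out. With that trend removed 1 of the 21 was called higher and 2 lower, and without untreated replicate 1, 2 or 3 the calls numbered 6, 5 and 6.

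Of 21 genes listed under desmosomes and plakins, which anchor keratin filaments at the cell membrane, 14 were tested, 3 rose and 2 fell (median log2 fold change 0.24), where 30.1% of all tested genes were called. This list too was broader than its name, as it held the hemidesmosome genes COL17A1 and ITGB4 and the adherens junction gene CTNNA1. COL17A1, the transmembrane collagen of hemidesmosomes, rose from 5.96 ± 0.250 to 12.1 ± 1.41 CPM (n = 3 each; log2 fold change 1.03, edgeR adjusted P = 7.27e-04), a call lost only with a correction for effective length. PKP2, a plakophilin, fell by 0.25 on the log2 scale. That call was lost without untreated replicate 1 or 2 and with the correction for effective length. It was also lost with the GC trend removed and the replicate number fitted together. PKP3 (0.42) and JUP (0.29) rose in the fit as made but had the opposite sign with the GC trend removed, and DST (-0.41) had the opposite sign with the correction for effective length. The calls for PKP3, JUP and DST were also lost when any single untreated library was left out. In all, the list had 1 call without untreated replicate 1 or 2, 3 without IR replicate 3 or untreated replicate 3 and 8 without IR replicate 1.

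Among 18 other intermediate filament genes, 11 were tested, 4 rose and 1 fell (median log2 fold change 0.15), where 30.1% of all tested genes were called, and with the GC trend removed 2 were higher and 3 lower. NEFL, the neurofilament light chain, rose from 98.6 ± 7.25 to 139 ± 6.96 CPM (n = 3 each; log2 fold change 0.50, edgeR adjusted P = 0.00146), and LMNB1, a nuclear lamin, fell from 235 ± 17.9 to 161 ± 11.2 CPM (-0.55, edgeR adjusted P = 0.00131). Both calls were made in all 16 alternative fits. BFSP1, a lens filament gene, and IFFO1 rose by 0.77 and 0.72. The call for BFSP1 was lost without IR replicate 1 or 2 or untreated replicate 1 or 2, and that for IFFO1 without IR replicate 2 or 3 or untreated replicate 1 or 2, and with the GC trend removed or the correction for effective length. The list had 2 calls in place of 5 without IR replicate 2, untreated replicate 1 or untreated replicate 2, and 3 without IR replicate 3.

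Genes of keratinized tissue, of hair follicle regulation and of epithelial junctions were counted to different extents. Of 28 cornified envelope and hair follicle structural genes, 14 were at 0 in all libraries and 7 were tested, of which only IVL was called. IVL, the cornified envelope protein involucrin, had 0.384, 0.491 and 0.538 CPM in untreated and 0.871, 0.926 and 0.908 CPM in IR cells, failed the stricter filter of 10 counts in every library and lost its call when any single library was left out, so it is given as values only. Of 13 hair follicle transcription factors 8 were tested, and SOX9 (log2 fold change -0.58, edgeR adjusted P = 0.00177) and TRPS1 (-0.54, edgeR adjusted P = 0.00444) fell, in all 16 alternative fits, while none of the others was called. Of 29 epithelial junction and differentiation genes 15 were tested, 2 were called higher and 2 lower (median -0.02), and the share called was 30.1% among all tested genes. ST14, a called gene, had 0.110, 0.446 and 0.147 CPM in untreated and 0.823, 0.980 and 0.576 CPM in IR cells, so it was kept by the filter on low counts through its IR libraries and is given as values only. The others included the E-cadherin gene CDH1 (2.07 ± 0.256 against 3.19 ± 0.373 CPM, n = 3 each; log2 fold change 0.61, edgeR adjusted P = 0.0465, called in 4 of 16 alternative fits and lost when any single library was left out) and occludin, OCLN (log2 fold change -0.28, edgeR adjusted P = 0.00818), whose value was -0.14 with the GC trend removed and which was then not called, nor with the correction for effective length. The 4 calls of this list were 1 without IR replicate 2, untreated replicate 1 or untreated replicate 3, and 2 without IR replicate 1 or untreated replicate 2.

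Markers of cell types that could carry keratins were examined beside these results. Among all tested genes 15.5% were called higher and 14.5% lower. COL17A1 and CDH1 were already counted above, in the desmosome and the epithelial junction lists. The 7 keratinocyte markers summed to between 16.2 and 20.8 TPM in untreated and between 19.1 and 25.7 TPM in IR libraries, with 4 tested, only COL17A1 higher, and KRT1 at 0 in all libraries. The 7 simple-epithelium markers summed to 21.6 to 22.9 TPM against 22.02 to 26.6 TPM, with 4 tested and only CDH1 higher. Most of this sum was EPCAM, with 14.5 to 15.5 TPM in untreated and 14.98 to 15.9 TPM in IR libraries. CLDN4 and MUC1 were also counted in every library, whereas KRT19 had 1 count in all 6 libraries together. Of the leukocyte genes, CD3E was at 0 in all libraries, and CD68 was called higher (log2 fold change 0.67, edgeR adjusted P = 0.0189), a call lost without IR replicate 2 or untreated replicate 3, with the GC trend removed or with the correction for effective length. PTPRC had 1.49 ± 0.238 CPM in untreated and 0.877 ± 0.153 CPM in IR cells (n = 3 each; log2 fold change -0.77, edgeR adjusted P = 0.0607), and its groups did not overlap. Among 12 osteoblast-lineage markers, which summed to 2467 to 2831 TPM against 2481 to 2719 TPM, ALPL rose by 1.09 and RUNX2 fell by 0.36 on the log2 scale among 8 tested, the latter not called when IR replicate 1 or any single untreated library was left out. SPARC alone had 1837 to 2022 TPM in untreated and 1791.5 to 1986 TPM in IR libraries, so this sum does not describe the whole list. The part of other cell types in the keratin differences was not tested.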

How the data were processed

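Total counts and levels came from 6 libraries of U-2 OS cells. The authors trimmed reads with fastp and assigned them with kallisto to GENCODE transcripts of GRCh38, and deposited an estimated count and a TPM value for each transcript and library; estimated counts are not normalized, whereas the authors scaled TPM for effective length and library total. The tool's version and the use of strand are not given in the sources used here. The labels name a polyA RNA kit and the paper's methods a total RNA kit, and which was used could change levels.

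Of 161171 transcripts, 158711 matched GENCODE release 44 (98.2% to 98.5% of counts) and were summed per gene and rounded. Differences were fitted with edgeR 4.0.16 in R 4.3.3 (filterByExpr, TMM, quasi-likelihood test, no covariates, all 6 libraries), with Benjamini-Hochberg adjustment over 14323 genes and a call at 0.05. Of these, 4307 genes were called, 2227 higher and 2080 lower. CPM used TMM-scaled library sizes, and TPM was summed per gene as deposited. The deposited effective length exceeded the transcript length for 24.2% (IR replicate 3) to 29.1% (untreated replicate 2) of transcripts. Orders and ratios in TPM therefore carry a length correction that differs between libraries. The fit was also run on simulated counts, the outcome of which is not reported here. Replicates were compared by chi-square, which was 3.36 to 29.4 per gene, so none were duplicates. The highest values, 26.5 and 29.4, were those of IR replicate 3, the deepest library, with IR replicates 1 and 2. Between IR replicates 1 and 2 the value was 5.69. Alternatives were DESeq2 1.42.0 and its size factors, other filters, a replicate block, GC and effective length offsets, summed KRTAP families, leaving out each library, and IR replicate 3 thinned to the depth of the others, the last added after seeing the data.

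The members and gene lists were chosen with earlier results of these data known. Genes named were the members, keratin and KRTAP genes that were tested or at 0 beside a counted paralog, up to 3 called genes per direction and list, tested genes within 500 kb of KRTAP2-3, the 5 nearest profiles, CDKN1A and cell type markers; SMARCE1, ENSG00000264058 and markers that were not called were named after their values were seen. The sharing of 31-base stretches counted both strands. The leukocyte marker list is not reported in full here.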

Additional observations from a re-analysis of the deposited data

How the results depend on the processing

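Of 96 values of members under an alternative, 94 kept their direction and their side of the threshold. Summing each KRTAP family, 1 of the 16 alternative fits, could not alter a value here, as the paralogs of KRTAP2-3 were at 0. With the correction for effective length the log2 fold change of KRT8 was 0.26 and not called, and with at least 10 counts in every library that of KRT7 was 0.53 and was called; the cause was not tested. Leaving out each library in turn gave 2.06 to 2.11 for KRTAP2-3, 1.34 to 1.42 for KRT34, 0.33 to 0.45 for KRT8, 0.30 to 0.48 for KRT18, 0.41 to 0.62 for KRT7 and -0.07 to 0.04 for KRT80. Ranked by CPM and not by TPM, which ignores length, KRT80 was at position 1, KRT8 at 3, KRT34 at 4 and KRT7 at 5 in untreated cells.

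With the correction for effective length the calls were 5 for keratin and KRTAP genes (8 as reported), 1 for desmosome and plakin genes (5), 3 for other intermediate filaments (5), 0 for cornified and hair structural genes (1), 0 for epithelial junction genes (4), 5 for filament regulators (10) and 1681 for all genes (4307). With the GC trend removed they were 0 for cornified genes, 1 for epithelial genes and 3 for regulators, and with a replicate block added to it 3 for desmosome genes, 0 for cornified genes, 2 for epithelial genes and 3 for regulators. DESeq2 gave 0 for cornified and 2 for epithelial genes, and the cornified call was also lost (0) with IR replicate 3 thinned and with 10 counts in every library. Without each library in turn the calls ranged from 6 to 9 for keratin and KRTAP genes, 1 to 8 for desmosome genes, 2 to 4 for other filaments, 0 to 1 for cornified genes, 1 to 3 for epithelial genes, 5 to 9 for regulators, 2 to 3 near KRTAP2-3, 2 for hair follicle factors and 2582 (untreated replicate 1 left out; 2601 without untreated replicate 2) to 4398 for all genes. The median log2 fold change of all genes moved by less than 0.1 under every alternative fit.

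The labels do not say whether the replicate numbers shared by the groups pair the libraries. Deviations of libraries with the same number correlated at -0.02, 0.01 and -0.05. This shows no shared deviation but cannot tell whether the cultures were handled in pairs. A fit with the replicate block gave log2 fold changes of 2.09 for KRTAP2-3, 1.38 for KRT34, 0.40 for KRT8, 0.41 for KRT18, 0.54 for KRT7 and -0.00 for KRT80, and called 7 keratin and KRTAP genes, 0 cornified, 2 epithelial, 8 regulator, 5 desmosome and 4 other filament genes and 3351 genes in all.

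Among the other 48 named genes, 606 of 762 values were unaltered in call and direction, 145 lost and 2 gained a call and 9 changed sign. With the GC trend removed, without and with the replicate block, PKP3 was at -0.041 and -0.043, JUP at -0.0047 and -0.00045, LMNA at -0.032 and -0.031 and STUB1 at -0.0023 and -0.0015, and with the correction for effective length DST was at 0.10. With 3 libraries a group, low-count genes such as KRT15 and IVL carry wide intervals.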

Other observations

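Outside the 16 tested genes, keratin and KRTAP genes left only traces, reported here as values. KRT79 had 1, 2.98 and 2 estimated counts in untreated and 9, 9 and 15.5 in IR libraries, and KRT5, the basal keratinocyte keratin, had 10.9, 7 and 11 against 3, 4 and 6. The IR libraries were all above the untreated ones for KRT79, in CPM as well as in counts, and all below for KRT5. Groups without overlap were found for 47.0% of all tested genes, so nothing is read from this. KRTAP20-4 and KRTAP19-5, on chromosome 21, had 48 and 43 counts over the 6 libraries, and their groups overlapped. All these genes were too low for the filter on low counts.

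Summed over all 55 keratin genes, the deposited TPM was 852, 803 and 875 in untreated and 895, 927 and 1088 in IR libraries, with IR replicate 3 the highest. Summed over all 94 KRTAP genes it was 12.2, 9.39 and 11.7 against 17.04, 16.9 and 21.4. The groups did not overlap in either sum, but both include members. Without KRTAP2-3 the KRTAP sum was 9.50, 6.52 and 9.15 in untreated and 5.39, 5.95 and 8.77 in IR libraries, and without KRT34, KRT8, KRT18, KRT7 and KRT80 the keratin sum was 437, 397 and 443 against 429.75, 454 and 502, with overlap in both.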
